A study of Mus musculus with 6 samples.

Results

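Endothelial adhesion molecules were described in mouse heart as 8 genes, given by symbol and all present among the 24346 genes of each library. *Icam1*, *Vcam1*, *Sele* (E-selectin) and *Selp* (P-selectin) are the inducible members, and *Icam2*, *Pecam1*, *Cdh5* (VE-cadherin) and *Esam* are the constitutive members. Heart RNA of male C57BL/6J mice was sequenced in 3 groups, C, N and NP, of 2 libraries each, and values are given for replicate 1 and then replicate 2. The C group was fed normal chow. The N group was fed a NASH diet, rich in fat, cholesterol and sucrose with bile acid. The NP group received that diet with pemafibrate, a PPARα modulator, at 0.1 mg/kg. The labels give 3 weeks of feeding in every group, whereas the study's methods give a longer time, and the age of the mice was not given in the sources used here. In the labels the tissue is heart, but the RNA extraction is described for liver. Nothing states that the libraries of a group came from separate animals, so that *P* values measure the spread between these libraries, which may be technical.

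Leukocytes leave the blood in steps. Selectins on the endothelium slow the cells by binding glycans carried by ligands such as PSGL-1, and ICAM-1 and VCAM-1 then hold them by binding the leukocyte integrins LFA-1, Mac-1 and VLA-4. In most vascular beds the inducible receptors are low at rest and are transcribed in response to cytokines through NF-κB and other inducible factors. PECAM-1, VE-cadherin and ESAM sit at the contacts between endothelial cells, which leukocytes cross, and ICAM-2 is present on resting endothelium. *Icam1* and *Vcam1* are not particular to endothelium, since leukocytes and stromal cells also express them.

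Promoter sequence from RefSeq (GRCm38.p6, the mm10 assembly) was matched for 3 members, *Icam1*, *Sele* and *Selp*. *Vcam1*, *Icam2*, *Pecam1*, *Cdh5* and *Esam* were not matched. The 250 bases before each start are shown because these 3 are inducible members, of which *Icam1* was well above the selectins in level. Capitals mark GGAA on either strand (TTCC on the strand shown), the core letters bound by ETS factors, a family that includes regulators of endothelial genes.
Icam1 promoter, chr9:21015690-21015939, plus strand: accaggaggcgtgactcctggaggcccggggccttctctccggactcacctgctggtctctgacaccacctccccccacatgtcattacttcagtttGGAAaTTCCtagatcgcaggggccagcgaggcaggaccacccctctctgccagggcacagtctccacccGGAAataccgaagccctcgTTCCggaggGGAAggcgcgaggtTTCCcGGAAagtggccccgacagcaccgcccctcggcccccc
Sele promoter, chr1:164047984-164048233, plus strand: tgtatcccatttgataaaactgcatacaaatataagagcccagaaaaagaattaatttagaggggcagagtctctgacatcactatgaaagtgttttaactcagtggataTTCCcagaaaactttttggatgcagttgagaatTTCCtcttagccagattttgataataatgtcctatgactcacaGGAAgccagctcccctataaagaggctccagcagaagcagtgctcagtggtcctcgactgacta
Selp promoter, chr1:164115014-164115263, plus strand: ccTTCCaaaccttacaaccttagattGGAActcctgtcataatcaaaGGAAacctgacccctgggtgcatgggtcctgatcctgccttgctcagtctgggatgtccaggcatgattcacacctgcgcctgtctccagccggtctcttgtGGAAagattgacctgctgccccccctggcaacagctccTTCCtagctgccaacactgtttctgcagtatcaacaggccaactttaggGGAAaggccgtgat
The *Icam1* window held 7 matches, the last of them 37 to 34 bases before the RefSeq start at 21015940. GENCODE gives a start further downstream, at 21015985, from which these distances would be longer. The *Sele* window held 3 and the *Selp* window 6. The *Sele* window precedes the start at 164048234 that GENCODE gives, which lies inside the wider gene span of RefSeq printed with its values. Of 32851 promoter windows of the same length, 93.4% held at least 1 match, so that its presence sets none of the 3 apart. The κB consensus was taken as GGGRNNYYCC (R for A or G, Y for C or T, N for any base). Read on both strands, it occurred in 7.25% of all windows and in 0 of these 3. Its strict letters leave out near matches, such as tGGAAaTTCC in the *Icam1* window, which departs from it in the first letter. The lack of a strict match therefore does not show that κB sites are absent, and capitals do not assign letters to ETS factors alone. A match describes the letters and was not tested as a binding site.

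The values are FPKM, fragments scaled to transcript length and to the number of mapped fragments, which allow levels to be compared between genes. The constitutive junction members were the most abundant. In the C group, the mean FPKM was 76.8 ± 4.64 for *Cdh5*, 75.4 ± 2.84 for *Pecam1*, 44.5 ± 4.62 for *Esam* and 23.0 ± 0.739 for *Icam2* (SD, n = 2 for these and all group means that follow). *Vcam1* and *Icam1* were at 6.65 ± 0.863 and 6.51 ± 2.02 FPKM, and *Sele* and *Selp* at 0.362 ± 0.0806 and 0.0789 ± 0.0289 FPKM. The order of *Cdh5* and *Pecam1*, and that of *Vcam1* and *Icam1*, lay within the spread of the libraries. The plot of FPKM by group shows all 8 members.

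**Figure D1:**
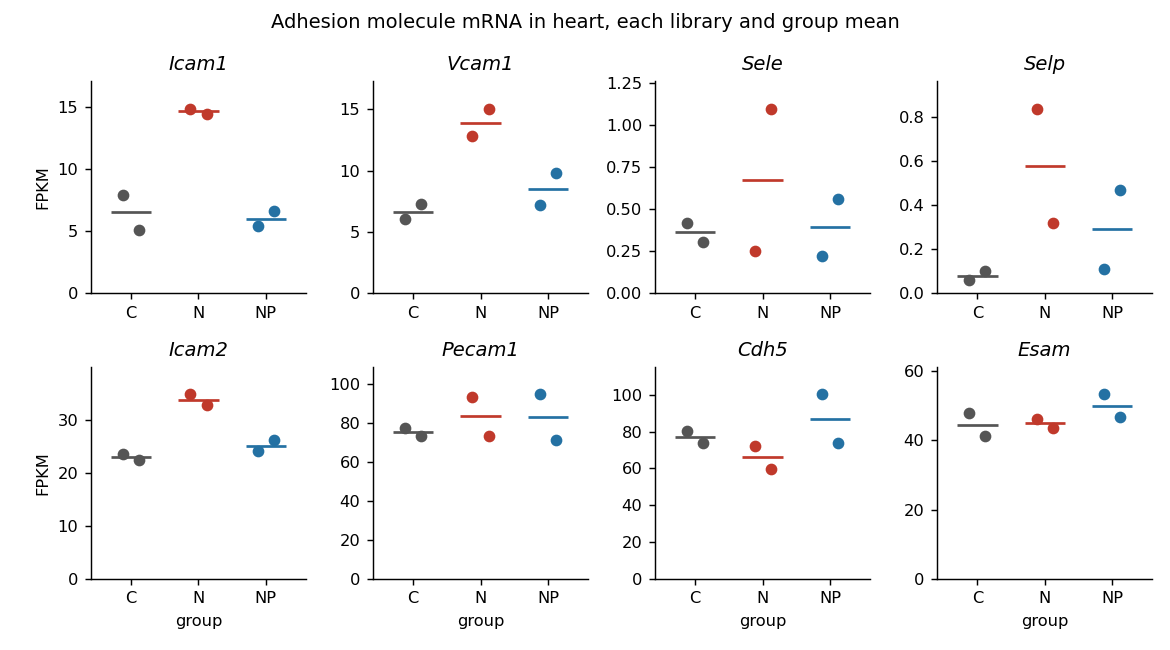
FPKM of the 8 members (vertical axes, each from 0) in the C, N and NP groups (horizontal axes), with a point for each library and a line for the group mean. *Icam1*, *Vcam1* and *Icam2* were above both other groups in both N libraries, and *Cdh5* was below both other groups in both N libraries. For *Sele*, *Selp*, *Pecam1* and *Esam* the N libraries overlapped those of at least one other group.

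*Icam1* (chromosome 9, 21015940 to 21028814), the ligand of LFA-1 and Mac-1, was at 7.93 and 5.08 FPKM in C, 14.8 and 14.4 in N and 5.39 and 6.58 in NP. Both N libraries were above all 4 others, and the C and NP libraries overlapped. The mean in the N group was 14.6 ± 0.299 FPKM, 2.25 times that of the C group, and the mean in the NP group was 5.99 ± 0.845 FPKM, 0.409 times that of the N group. On log2(FPKM + 1), the N group was 1.08 above the C group (SE 0.20, 95% interval 0.58 to 1.59, adjusted *P* = 0.0807 in limma with the Benjamini-Hochberg method). The NP group was 1.17 below the N group (difference -1.17, SE 0.20, 95% interval -1.67 to -0.67, adjusted *P* = 0.0770 in limma). Neither comparison passed the threshold of 0.05. Between NP and C the difference was -0.08 with a 95% interval of -0.58 to 0.42 (adjusted *P* = 0.952 in limma).

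*Vcam1* (chromosome 3, 116110020 to 116129688), the ligand of VLA-4, was at 6.04 and 7.26 FPKM in C, 12.8 and 15.1 in N and 7.23 and 9.81 in NP. The N libraries were again above all others, and the lower NP library lay between the 2 C libraries. The mean in the N group was 13.9 ± 1.60 FPKM, 2.09 times that of the C group, and the mean in the NP group was 8.52 ± 1.82 FPKM, 0.612 times that of the N group. The N group was 0.96 above the C group on log2(FPKM + 1) (SE 0.18, 95% interval 0.53 to 1.40, adjusted *P* = 0.0783 in limma). The difference of the NP from the N group was -0.66 (SE 0.18, 95% interval -1.10 to -0.22, adjusted *P* = 0.288 in limma), and that of the NP from the C group was 0.31 (95% interval -0.13 to 0.74, adjusted *P* = 0.721 in limma). None of the 3 comparisons of *Vcam1* passed the threshold in the reported fit, and other settings changed the call between N and C.

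*Sele* (chromosome 1, 164039614 to 164058487) and *Selp* (chromosome 1, 164115264 to 164150026), neighbouring genes of the selectins that capture leukocytes, were the lowest of the 8. *Sele* was at 0.419 and 0.305 FPKM in C, 0.251 and 1.10 in N and 0.223 and 0.563 in NP. The libraries of all 3 groups overlapped. *Selp*, which platelets and endothelium store, was at 0.0585 and 0.0994 FPKM in C, 0.840 and 0.319 in N and 0.112 and 0.472 in NP. Both N libraries and both NP libraries were above the C libraries, and the N and NP libraries overlapped. These levels rest on an estimated 5 to 30 reads a library for *Sele* and 3 to 24 for *Selp*. Their mean FPKM over the 6 libraries was under 0.5, so that both were left out of the test. On log2(FPKM + 1), the difference between N and C was 0.25 for *Sele* and 0.53 for *Selp*, and a fit without the filter gave adjusted *P* values of 0.744 and 0.353 in limma. The unadjusted *P* values of that fit in limma were 0.396 for *Sele* and 0.0495 for *Selp*, whose 95% interval was 0.00161 to 1.06. The size of the *Selp* difference depended on the scale, since the ratio of the group means was 7.34 and a pseudocount of 0.1 gave a log2 difference of 1.82. It was 0.29 without N replicate 1 and 0.77 without N replicate 2. Between NP and N it was -0.28, and -0.85 with a pseudocount of 0.1. The *Sele* difference between N and C was -0.12 without N replicate 2. The deposited values also list a lncRNA that overlaps *Selp*, *Gm16548*, at 0 to 0.221 FPKM.

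*Icam2* (chromosome 11, 106377656 to 106388139), a constitutive ligand of LFA-1, was at 23.5 and 22.5 FPKM in C, 34.8 and 32.7 in N and 24.2 and 26.1 in NP. The N libraries were above all others, and the NP libraries were above the C libraries by a small margin. The mean in the N group was 33.7 ± 1.47 FPKM, 1.47 times that of the C group, and the mean in the NP group was 25.1 ± 1.37 FPKM, 0.745 times that of the N group. The N group was 0.53 above the C group on log2(FPKM + 1) (SE 0.11, 95% interval 0.28 to 0.79, adjusted *P* = 0.0916 in limma). The difference of the NP from the N group was -0.41 (95% interval -0.67 to -0.15, adjusted *P* = 0.245 in limma). Neither passed the threshold. The difference of the NP from the C group was 0.12 (95% interval -0.14 to 0.38, adjusted *P* = 0.810 in limma).

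The 3 junction members had no such order. *Pecam1* (chromosome 11, 106654213 to 106715281) was at 77.4 and 73.4 FPKM in C, 93.5 and 73.3 in N and 94.6 and 71.4 in NP. *Cdh5* (chromosome 8, 104101613 to 104144504), which joins neighbouring endothelial cells, was at 80.1 and 73.5 FPKM in C, 72.2 and 59.7 in N and 100.2 and 73.5 in NP. *Esam* (chromosome 9, 37528089 to 37538319) was at 47.8 and 41.3 FPKM in C, 46.3 and 43.7 in N and 53.3 and 46.7 in NP. *Pecam1* overlapped between all groups, whereas both N libraries of *Cdh5* were below all 4 others and both N libraries of *Esam* were below both NP libraries. On log2(FPKM + 1), the difference between N and C was 0.13 for *Pecam1* (95% interval -0.31 to 0.58), -0.22 for *Cdh5* (-0.67 to 0.22) and 0.02 for *Esam* (-0.30 to 0.33). The difference between NP and N was -0.0094 for *Pecam1* (95% interval -0.46 to 0.44), 0.38 for *Cdh5* (-0.06 to 0.83) and 0.15 for *Esam* (-0.17 to 0.46). Adjusted *P* values in limma were 0.625 to 0.970 for the first comparison and 0.741 to 1 for the second. The intervals of *Pecam1* include the *Icam2* differences of 0.53 and -0.41, whereas those of *Cdh5* and *Esam* do not reach them. A *P* value that misses the threshold does not show that the junction members were alike in the groups.

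Over all members, 6 of 8 were tested. Between N and C, 0 of the 6 passed the adjusted threshold of 0.05 in limma, against 1.55% of the 12923 genes tested, and 3 (*Icam1*, *Vcam1* and *Icam2*) had an unadjusted *P* value under 0.05 and were higher, against 8.24% of genes. Members were counted as apart where both libraries of a group lay outside those of the other and the group means differed by at least 1.5-fold on log2(FPKM + 1). By that count *Icam1* and *Vcam1* were apart and higher in the N group, against 5.08% of genes. Without the limit on size, 3 members lay wholly higher, against 22.5% of genes, and *Cdh5* wholly lower, against 27%. Between NP and N, 0 of 6 passed the adjusted threshold, against 1.39% of genes. *Icam1*, *Vcam1* and *Icam2* had unadjusted *P* values under 0.05 and were lower, against 5.83% of genes, and *Icam1* and *Vcam1* were apart and lower, against 3.72%. Without the limit on size, 3 members lay wholly lower, against 14.7% of genes, and *Cdh5* and *Esam* wholly higher, against 15.2%. Between NP and C, 0 of 6 passed the adjusted threshold, against 0.0387% of genes, 0 had an unadjusted *P* value under 0.05, against 8.05%, and 0 were apart, against 3.55%. *Icam2* alone lay wholly higher in NP, against 19.5% of genes. The first 2 comparisons share the N libraries and are not independent. For single genes no exact permutation test is given, because 2 libraries against 2 cannot go below *P* = 0.33.

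**Figure D2:**
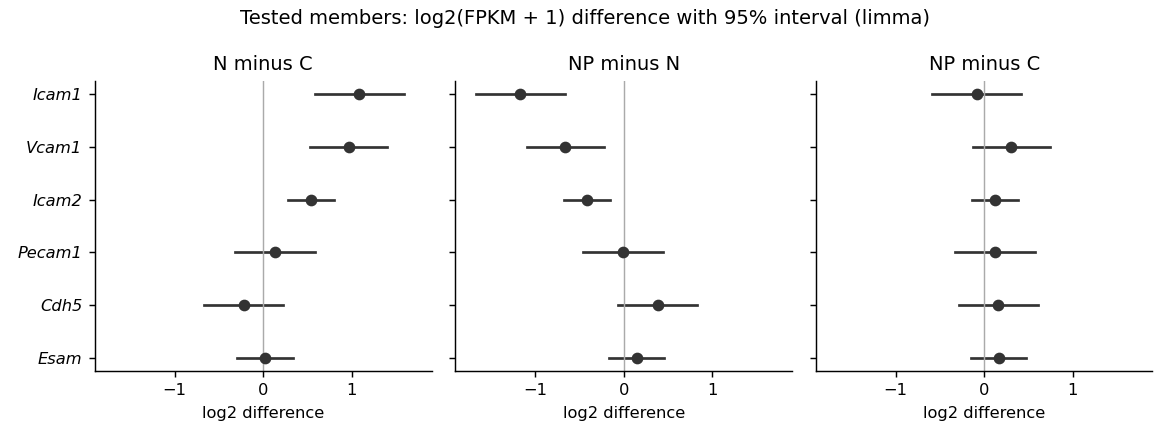
Differences of the 6 tested members on log2(FPKM + 1) (horizontal axes) for the 3 comparisons, with a point for the estimate and a line for its 95% interval from limma. The intervals of *Icam1*, *Vcam1* and *Icam2* lie above 0 between N and C and below 0 between NP and N, and all 6 intervals between NP and C include 0.

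The call between N and C depended on the processing. With all libraries set to the same total FPKM, *Icam1* (1.24, adjusted *P* = 0.0490), *Vcam1* (1.12, adjusted *P* = 0.0253) and *Icam2* (0.70, adjusted *P* = 0.0436) passed the threshold in limma. That scaling moved the median difference of all genes from -0.03 to 0.12. The N libraries were 1.36 above the C group for *Icam1* without C replicate 1 and 0.81 above it without C replicate 2. For *Vcam1*, the NP minus N difference was -0.46 without NP replicate 1 and -0.55 without N replicate 2, which left *Icam1* as the member apart. The deposited columns of the N and NP groups carry names of different kinds for replicates 1 and 2, so that differences were also taken within a number. Between N and C these were 0.83 and 1.34 for *Icam1*, 0.97 and 0.96 for *Vcam1* and 0.55 and 0.52 for *Icam2* in replicates 1 and 2. Between NP and N they were -1.31 and -1.02 for *Icam1*, -0.74 and -0.57 for *Vcam1* and -0.51 and -0.31 for *Icam2*. Both N libraries of these genes lay above all others, which fixed every sign in advance. Only the sizes are therefore described.

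The inducible members and *Icam2* were set against the junction members within each library, which removes the scaling between libraries. *Icam1* was at 11.6% and 8.10% of the mean FPKM of *Pecam1*, *Cdh5* and *Esam* in C, 21.0% and 24.5% in N and 6.51% and 10.3% in NP. *Vcam1* was at 8.83% and 11.6% in C, 18.1% and 25.6% in N and 8.74% and 15.4% in NP. *Icam2* was at 34.3% and 35.8% in C, 49.2% and 55.5% in N and 29.2% and 40.8% in NP. For all 3 genes both N libraries were above the other 4, and the C and NP libraries overlapped. In bulk tissue, more cells of a type and more RNA per cell cannot be told apart. Neither can endothelial and other sources of *Icam1*, *Vcam1*, *Icam2* or the junction members used as the base.

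**Figure D3:**
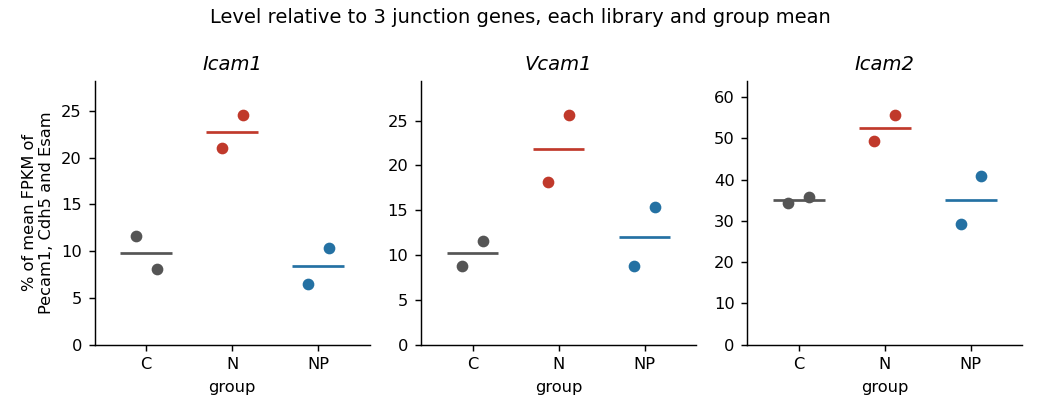
FPKM of *Icam1*, *Vcam1* and *Icam2* as a percentage of the mean FPKM of *Pecam1*, *Cdh5* and *Esam* in the same library (vertical axes, from 0), with a point for each library and a line for the group mean. The N libraries were at 21.0% and 24.5% for *Icam1*, above the C and NP libraries.

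The leukocyte side of the same contacts was described with 13 counter-receptor genes, of which 12 were tested. Between N and C 4 rose (adjusted *P* under 0.05 in limma), where 1.55% of all tested genes passed in either direction. Of the 12, 9 were apart and higher, against 5.08% of genes, with a median difference of 0.84 against -0.03 over all genes. The 4 were *Itgal*, the LFA-1 α chain (1.35, adjusted *P* = 0.00955), *Itgb7*, an integrin β chain (1.20, 0.0297), *Selplg*, which encodes PSGL-1 (1.33, 0.0303), and *Spn*, which encodes CD43 (1.20, 0.0424). Between NP and N the same 4 genes fell, with differences of -1.23 for *Itgal*, -1.11 for *Itgb7*, -1.57 for *Selplg* and -1.36 for *Spn* (adjusted *P* 0.0150 to 0.0402 in limma). In that comparison 1.39% of all genes passed, and the list's median was -0.94 against 0.03. *Itgal*, the partner of ICAM-1 and ICAM-2, was at 0.339 and 0.356 FPKM in C, 2.50 and 2.40 in N and 0.409 and 0.537 in NP. *Selplg*, the partner of the selectins, was at 2.21 and 1.93 FPKM in C, 8.07 and 5.54 in N and 1.66 and 1.52 in NP. Both had N libraries well above all others. In the C and NP libraries *Itgb7* and *Spn* were at 0.198 to 0.474 FPKM. With *Itgal*, they passed the filter of a mean of 0.5 FPKM only through the N libraries. So did *Itgax*, counted among the genes apart, at 0.0307 to 0.316 FPKM outside N. The rise and fall of these genes were thus in part fixed by the filter.

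Other direct partners did not pass the threshold. *Itgb2*, the shared chain of LFA-1 and Mac-1, differed by 1.25 between N and C and by -1.34 between NP and N (adjusted *P* = 0.0664 and 0.0590 in limma). *Itgam*, the Mac-1 α chain, differed by 0.69 and -0.92 (adjusted *P* = 0.152 and 0.104 in limma), and *Itga4*, the VLA-4 α chain that binds VCAM-1, by 0.72 and -0.64 (0.0861 and 0.149). *Itgb1*, the VLA-4 β chain that most cells express, was at 126.9 to 145.5 FPKM in the 6 libraries. Of 12 genes of selectin ligand synthesis 9 were tested and 0 passed in either comparison, against 1.55% and 1.39% of all genes. *Chst4* was at 0.486 and 0.0256 FPKM in C, 2.53 and 1.08 in N and 1.75 and 1.57 in NP. It differed by 1.14 between N and C (adjusted *P* = 0.167 in limma) and by -0.03 between NP and N. It was the 1 gene of this list apart and higher in N than in C, against 5.08% of all genes.

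Of 24 endothelial markers all were tested and 0 passed between N and C or between NP and N, against 1.55% and 1.39% of all genes. The 0 calls here and in the smaller lists below are near those shares. Medians were 0.08 and 0.05, against -0.03 and 0.03 over all genes. Of the 24, 16 were higher in N than in C, 16 in NP than in N and 19 in NP than in C. Their summed FPKM was 793 and 734 in C, 874 and 833 in N and 896 and 817 in NP. All N and NP sums thus lay above both C sums, and none of the 24 was at 0. Some markers differed between N and C by about as much as *Icam2* or more. *Tm4sf1* was at 25.7 and 27.0 FPKM in C, 39.0 and 51.3 in N and 30.8 and 38.3 in NP (N minus C 0.74, adjusted *P* = 0.132 in limma). It was the 1 of 24 that was apart and higher, near the 5.08% of all genes. *Emcn*, which encodes the sialomucin endomucin, differed by 0.51 and *Mmrn2* by 0.46 (adjusted *P* = 0.142 and 0.280 in limma). Others went the other way, with both N libraries below both C libraries, as in 27% of all genes. These included *Sox17* (-0.36), *Robo4* (-0.35), *Aplnr* (-0.29), *Egfl7* (-0.27) and *Ptprb* (-0.14). Of 20 other junction genes 18 were tested and 0 passed, with medians of 0.01 and 0.10. Among these, the junctional adhesion molecule gene *F11r* differed by 0.12 and *Jam2* by -0.17 between N and C, and *Cldn5*, the main claudin of endothelial tight junctions, was at 31.1 and 21.5 FPKM in C, 21.9 and 11.5 in N and 25.4 and 12.4 in NP. Of 14 other adhesion receptors and chemokines 9 were tested and 0 passed. *Cx3cl1*, a membrane-bound chemokine that also holds leukocytes, differed by 0.53 and -0.46 (adjusted *P* = 0.204 and 0.460 in limma), and *Madcam1* and *Glycam1*, addressins of gut and lymph node, were listed at 0 in all 6 libraries.

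Among 33 genes of the pathways that induce adhesion molecules, 29 were tested, and *Irf1* alone passed in both comparisons, with list medians of 0.20 and -0.12. Over all genes 1.55% passed between N and C and 1.39% between NP and N. Of the 29, 5 were apart and higher between N and C, against 5.08% of genes, and 5 were apart and lower between NP and N, against 3.72%. *Irf1*, an interferon-responsive transcription factor, was at 13.9 and 13.7 FPKM in C, 35.5 and 50.0 in N and 12.4 and 15.4 in NP. It rose by 1.55 (adjusted *P* = 0.0219 in limma) and fell by 1.54 (0.0235). The NF-κB subunit genes *Rela* and *Nfkb1* differed by 0.30 and 0.27 between N and C and by -0.19 and -0.12 between NP and N, and the TNF receptor gene *Tnfrsf1a* by 0.29 and -0.23, and none of the 3 passed. Among genes that NF-κB induces or that restrain it, some differences were larger without passing and others were not. The NF-κB inhibitor genes *Nfkbia* and *Nfkbib* differed by 0.12 and -0.01 between N and C and by 0.15 and 0.06 between NP and N. The subunit gene *Nfkb2* differed by 0.38 and -0.23. *Nfkbie*, an inhibitor of NF-κB, differed by 0.66 and -0.92 (adjusted *P* = 0.137 and 0.0744 in limma) and was apart in both comparisons. *Tnfaip3*, which encodes the inhibitor A20, differed by 0.61 and -0.62 (0.139 and 0.198), also apart in both, and the NF-κB subunit gene *Relb* by 0.60 and -0.29 (0.177 and 0.836), apart between N and C. *Tnfaip3*, *Relb*, *Nfkbib* and *Nfkb2* were named after their values were seen. *Tnfrsf1b*, the second TNF receptor gene, differed by 0.85 and -0.77 (adjusted *P* = 0.0618 and 0.0968 in limma). *Tnf* itself was at 0.0837 to 0.317 FPKM and was not tested. Of 12 genes known to restrain endothelial activation, *Socs3*, an inhibitor of cytokine signals, fell between NP and N (-0.76, adjusted *P* = 0.0473 in limma), and 0 passed between N and C.

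**Figure D4:**
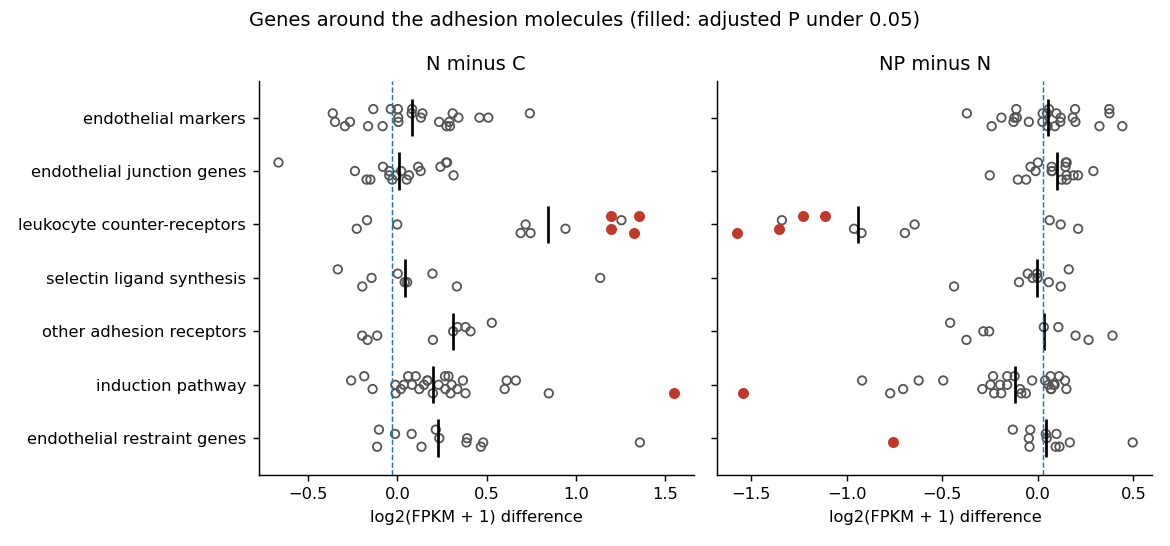
Differences of the tested genes of 7 lists on log2(FPKM + 1) (horizontal axes) between N and C and between NP and N, with a circle for each gene, filled where the adjusted *P* value was under 0.05 in limma, a black bar for the list's median and a dashed line for the median of all tested genes. The medians of the counter-receptors (0.84 and -0.94) lie away from the dashed line and those of the endothelial markers (0.08 and 0.05) close to it.

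The genes whose log2(FPKM + 1) was most like that of a member over the 6 libraries were found by Pearson's r, as a description. For *Icam1* these were *Clec4a2*, *Ebi3*, *Wdr1*, *Alox5ap* and *Racgap1* (r 0.985 to 0.993). For *Vcam1* they were *Cd82*, *Rtn3*, *Fam50a*, *Cflar* and *Rassf5* (r 0.991 to 0.995), and for *Cdh5* they were *Speg*, *1810032O08Rik*, *Zdhhc8*, *Cyth2* and *Pycrl* (r 0.988 to 0.999). No gene was shared between the 3 sets. The 6 points share the groups and their difference in depth.

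Other features of the libraries moved with the groups. The depth estimated from the FPKM was 21400000 to 26000000 reads in C and 8210000 to 8810000 in the N and NP libraries, so that depth and diet cannot be told apart in comparisons with the C group. The summed FPKM of 12 macrophage markers, none at 0, was 418 and 376 in C, 776 and 645 in N and 318 and 278 in NP. Of these, 4 rose between N and C and 7 fell between NP and N, where 1.55% and 1.39% of all genes passed. Markers of T and NK cells summed to 1.05 and 1.5 FPKM in C, 9.35 and 9.83 in N and 1.17 and 1.05 in NP, with *Cd3d* and *Cd5* at 0 in both NP libraries, and the 1 tested, *Nkg7*, rose in N and fell in NP. *Nkg7* was at 0 to 0.229 FPKM outside N and passed the filter only through the N libraries, which in part fixed that result. Markers of B cells summed to 1.11 to 1.36 FPKM in C, 5.71 to 5.79 in N and 1.44 to 1.75 in NP, and those of neutrophils to 3.32 to 7.63, 10.0 to 12.6 and 2.09 to 3.14, with *S100a8* past the threshold and lower in NP than in N. These leukocyte markers were high in the same libraries as *Icam1*, *Vcam1* and *Icam2*, and their part in the members' values was not tested. Platelet markers, which bear on *Selp*, summed to 26.1 to 26.9 FPKM in C, 30.5 to 34.2 in N and 21.8 to 21.9 in NP. Markers of atrial muscle summed to 176 to 308 FPKM in C and 3703 to 6240 in the N and NP libraries, 6 of 6 rose between N and C, and *Sln* and *Bmp10* were at 0 in C replicate 1. Liver markers summed to 515 FPKM in C replicate 2, 38.8 in C replicate 1 and 10.5 to 14.9 in the others. Without C replicate 2, the N minus C difference was 0.81 for *Icam1* and 1.08 for *Vcam1*. Adipocyte markers other than *Lpl* and *Cidea*, which were well detected in every library, summed to 1.97 and 8.21 FPKM in C, 180 and 93.2 in N and 15.2 and 78.9 in NP. No marker of liver, adipocytes, platelets, fibroblasts, mural cells or cardiomyocytes passed in limma between N and C or between NP and N. Over all genes 1.55% and 1.39% passed, so that 0 in such short lists says little. Between N and C, 7 of 8 liver markers were apart and lower, against 305 of 12923 genes. Of 7 tested adipocyte markers 5 were apart and higher, against 5.08%. In N, 8 of 8 fibroblast and 0 of 8 cardiomyocyte markers were higher than in C (medians 0.30 and -0.30). The mural median was 0.01. The part of atrial, liver and fat tissue in the members' values was not tested.

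**Figure D5:**
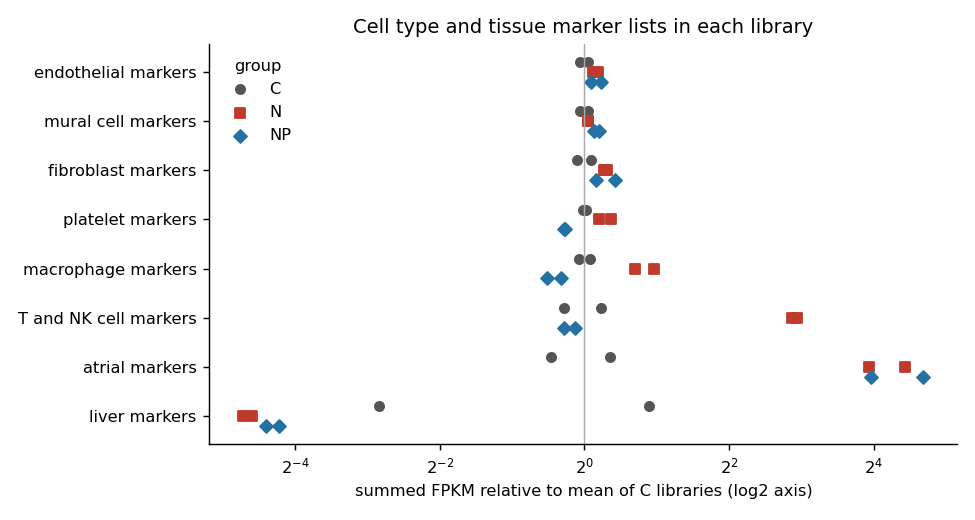
Summed FPKM of marker lists in each library relative to the mean of the C libraries (horizontal axis, log2 scale), with a point for each library of the C, N and NP groups. The endothelial sums are 1.07 to 1.17 times the C mean in the N and NP libraries. The macrophage and T and NK cell sums are highest in N, and the atrial sums are high in both the N and NP libraries.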

How the data were processed

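Heart libraries of the C, N and NP groups, 2 of each, were grouped by their sample labels. Libraries were prepared with a stranded mRNA kit and read as 75-base single ends. Per the submitters' processing notes, the authors used TopHat2 2.0.13, Bowtie2 2.2.3, SAMtools 0.1.19 and Cufflinks 2.2.1 with mm10, and the deposited values are FPKM. The annotation and strand setting are not given in the sources used here. Read counts were not analysed here.

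FPKM were taken as log2(FPKM + 1), which understates differences of low genes, and the 12923 genes with a mean of at least 0.5 FPKM were tested with limma 3.58.1 in R 4.3.3 (one model of 3 groups, moderation with a trend, 3 residual degrees of freedom). *P* values were adjusted over all tested genes by the Benjamini-Hochberg method. Tables and figures were made with Python 3.11.15, pandas 2.3.3 and matplotlib 3.10.9. The test was tried on simulated data. Depth was estimated from the steps of FPKM in 3502 genes with 1 transcript, where 75.9% to 79.3% of low values lay within 0.1 of a whole read, and estimates cover counting error only.

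The 8 members and the 21 gene lists, written by hand with 235 genes, were chosen with earlier results of these data known. Of the 235, 231 were matched by symbol and 2 by synonym, and 2 were not analysed here. Named genes are the members, the 3 genes of each list with the largest moderated t, direct partners of a member, and the 5 most alike genes, of which the text names a part chosen after the values were seen. Alternatives covered scaling, pseudocount, filter, moderation, a replicate block and leaving out each library. Some genes are not reported here.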

Additional observations from a re-analysis of the deposited data

How the results depend on the processing

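The test had 2 libraries a group and 3 residual degrees of freedom, and *Sele* and *Selp* had few reads. The number of members past the adjusted threshold between N and C was 0 in the reported fit, 3 with the same total FPKM and 1 with a replicate block. In the block fit *Vcam1* had an adjusted *P* value of 0.0148 in limma. The replicate numbers were not taken as a pairing, since not all groups shared them. Differences between replicates 2 and 1 correlated at 0.0471 between the C and N groups, 0.124 between C and NP and 0.458 between N and NP (Pearson's r over 12923 genes), so that the N and NP libraries of 1 number did deviate together. With the block, 274 genes were higher and 54 lower between N and C, against 191 and 9 without it. Members apart between NP and N were 2, and 1 to 3 with 1 library left out. Over all alternatives the N minus C difference was 0.81 to 1.36 for *Icam1* (adjusted *P* 0.0490 to 0.354 in limma), 0.85 to 1.12 for *Vcam1* (0.0148 to 0.391) and 0.44 to 0.70 for *Icam2* (0.0436 to 0.548). The NP minus N difference was -1.29 to -1.04 for *Icam1* (0.0507 to 0.378), -0.85 to -0.46 for *Vcam1* (0.0611 to 0.689) and -0.47 to -0.36 for *Icam2* (0.188 to 0.638). Differences near 0 that were not called changed sign. Among tested members, between N and C these were *Pecam1*, at -0.040 to 0.31 with 1 library left out, and *Esam*, at -0.074 relative to endothelial markers and -0.086 to 0.12 with 1 library left out. Between NP and N, *Pecam1* was at 0.000559 with the same median and at -0.21 to 0.19 with 1 library left out. Between NP and C, *Icam1* was at 0.050 with the same total and at -0.36 to 0.20 with 1 library left out, *Icam2* and *Pecam1* were at -0.027 and -0.025 relative to endothelial markers, and with 1 library left out *Pecam1* was at -0.076 to 0.33 and *Cdh5* at -0.061 to 0.38. *Sele*, not tested, also changed sign in each comparison, with -0.12 to 0.63, -0.60 to 0.14 and -0.15 to 0.20 when 1 library was left out. *Selp* with a pseudocount of 0.1 was at 1.82, -0.85 and 0.97 in the 3 comparisons. Setting libraries relative to endothelial markers moved the median of all genes to -0.12 between N and C. Apart from the block and the leave-outs by construction, the cause of these changes was not tested.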

Other observations

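Some genes of endothelial subtypes were higher in both the N and NP libraries than in C, and others were lower or alike. Between N and C, 22.5% of all genes lay wholly higher and 27% wholly lower. *Gja5*, a connexin of arterial endothelium and of atrial muscle, was at 2.66 and 3.16 FPKM in C, 6.58 and 7.96 in N and 6.21 and 7.87 in NP. It rose by 1.08 on log2(FPKM + 1) between N and C (adjusted *P* = 0.0409 in limma) and differed by -0.04 between NP and N. *Plvap*, a marker of fenestrated and venous endothelium, was at 5.59 and 8.84 FPKM in C, 17.7 and 12.7 in N and 11.8 and 16.1 in NP (N minus C 0.99, adjusted *P* = 0.172 in limma). *Vwf*, a gene of endothelium and platelets, was at 7.42 and 12.3, 24.0 and 12.5, and 19.2 and 13.3 FPKM in the same order (N minus C 0.79, adjusted *P* = 0.391 in limma). In contrast, *Dll4* of the arterial list was at 12.3 and 11.3 FPKM in C, 10.5 and 10.5 in N and 10.8 and 9.46 in NP. *Ccl21a* of the lymphatic list was at 22.4 and 21.5, 18.7 and 12.5, and 14.8 and 13.3 FPKM. Arterial *Gja4* differed by 0.000609 between N and C. Markers of atrial muscle were high in the same libraries, and their part in these values was not tested.

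*Lyve1*, a marker of lymphatic endothelium and of some resident macrophages, was at 14.7 and 13.6 FPKM in C, 20.5 and 17.9 in N and 15.1 and 13.8 in NP, and passed in neither comparison (adjusted *P* = 0.203 and 0.391 in limma). Both its N libraries lay above the other 4.

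Of the endothelial subtype lists, 0 of 5 tested venous and 0 of 6 lymphatic genes passed between N and C, and *Gja5* was the 1 of 6 arterial genes that did. None of these genes passed between NP and N. Over all genes 1.55% passed in the first comparison and 1.39% in the second, so that 0 in such short lists says little.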
